A study of Mus musculus with 8 samples.

Results

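Retinal cholinergic signalling was followed through 10 genes, chosen by name from the 18058 genes of the deposited table. These were the transmitter genes Chat, Slc18a3 and Slc5a7, the esterase genes Ache and Bche, and the nicotinic receptor genes Chrna3, Chrna4, Chrna6, Chrna7 and Chrnb2. All 10 were listed, and all 10 passed the filter on low values. The samples were whole retinae of adult mice of 2 genotypes, and each genotype has 4 libraries, lettered A to D. The wildtype (WT) mice were of the inbred strain 129S2/SvPasCrl, with no targeted allele. The quadruple knockout (KO) mice carried knockout alleles of 4 extracellular matrix genes, the tenascins Tnc and Tnr and the lecticans Bcan (brevican) and Ncan (neurocan), and came from crosses of the single knockout lines. The labels name no treatment. The series counts 4 mice per genotype, while the study describes the retinae as pooled before extraction and the mice as of both sexes. The sex, litter and number of retinae behind each library are not given in the sources used here. The p-values therefore measure the spread between these libraries. The study addressed retinal motion processing, in which starburst amacrine cells take part, and the comparison below asks whether the mRNAs of the transmitter system of these cells differed between the genotypes.

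Acetylcholine is made in the retina by starburst amacrine cells, which release it together with GABA and synapse onto direction-selective ganglion cells. Choline acetyltransferase (Chat) joins acetyl groups to choline, the vesicular acetylcholine transporter (Slc18a3) loads the product into vesicles, and the high-affinity choline transporter (Slc5a7) takes choline back up after release. Acetylcholinesterase (Ache) and butyrylcholinesterase (Bche) split the transmitter outside the cell. Nicotinic receptors are rings of subunits that open a cation channel, and in the retina they lie mainly on ganglion and amacrine cells. Before eye opening they carry waves of spontaneous activity across the ganglion cell layer.

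The nicotinic subunits are told apart by a pair of neighbouring cysteines in the loop that closes over the bound transmitter, which α subunits carry. The coding sequences are shown at that loop because the receptor results below are ordered by it. They were read from the mouse genome GRCm39 with the canonical transcripts of GENCODE release M39, are given 5′ to 3′ on the coding strand, and each lies within 1 exon. Capitals mark the codons of the cysteine pair, with 6 codons on each side.
Chrna3, chr9:54923120-54923161, minus strand: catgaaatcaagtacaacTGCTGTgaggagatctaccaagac
Chrna4, chr2:180671053-180671094, minus strand: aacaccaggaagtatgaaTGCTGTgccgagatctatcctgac
Chrna6, chr8:27897189-27897230, minus strand: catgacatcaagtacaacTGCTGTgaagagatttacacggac
Chrna7, chr7:62755888-62755929, minus strand: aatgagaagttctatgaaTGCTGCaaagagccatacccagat
Chrnb2, chr3:89668645-89668686, minus strand: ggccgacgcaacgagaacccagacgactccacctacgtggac
The stretches of Chrna3 and Chrna6 each matched that of Chrna4 at 27 of 42 bases, and that of Chrna7 at 24. In Chrnb2 the alignment of the encoded proteins left a gap of 3 codons opposite the pair, so its stretch carries no capitals and was placed by the aligned sequence that follows. These are reference sequences and were not read from the mice sequenced here.

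The deposited values are gene counts estimated by Salmon and divided by the normalization factors of DESeq2, and are called normalized counts here. They summed to between 36134196 and 42201667 per library, and the depth in reads is unknown. The targeted genes were checked first, and Ncan, Bcan and Tnr were called lower in the KO (limma, adjusted p under 0.05). Ncan fell from between 569 and 789 in WT to between 0 and 0.853 in the KO libraries, Bcan from between 197 and 327 to between 11.5 and 22.1, and Tnr from between 5578 and 6317 to between 2374 and 2580. Tnc measured 881 to 1592 in WT and 1024 to 1249 in the KO, so for this gene the count per gene does not separate the genotypes, and it does not show which exons remained. WT B and WT C stood apart from the other 6 libraries. The 13 mitochondrially encoded mRNAs made up 0.402% and 0.341% of their normalized counts, against 1.28% to 1.64% in the others, and the RNAs of the signal recognition particle made up 19.3% and 14.8%, against 6.82% to 8.69%. The differences of the named cholinergic genes are therefore given with all 8 libraries and without WT B and WT C, and the part of these libraries' composition in the results was not tested.

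None of the 10 cholinergic genes was called at an adjusted p under 0.05 (limma on the log2 normalized count + 1, with Benjamini-Hochberg adjustment over 17636 genes), a threshold that 0.437% of the genes tested passed. At an unadjusted p under 0.05 there was 1 of 10, Slc18a3, against 16.6% of the genes tested. In none of the 10 did the values of the genotypes stay apart without overlap, against 9.74% of the genes tested. The differences, as KO minus WT on the log2 scale, ran from -0.09 for Chat to 0.40 for Slc5a7 with a median of 0.02, beside a median of -0.00 over the genes tested. The differences were positive in 5 of 10 genes. Without WT B and WT C the median was -0.05, beside 0.01 over the genes tested. No cholinergic gene was then called, where 0.527% of the genes tested were, and none had an unadjusted p under 0.05, where 11.6% did. In bulk retina, fewer cells of a type and less RNA per cell cannot be told apart.

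**Figure D1:**
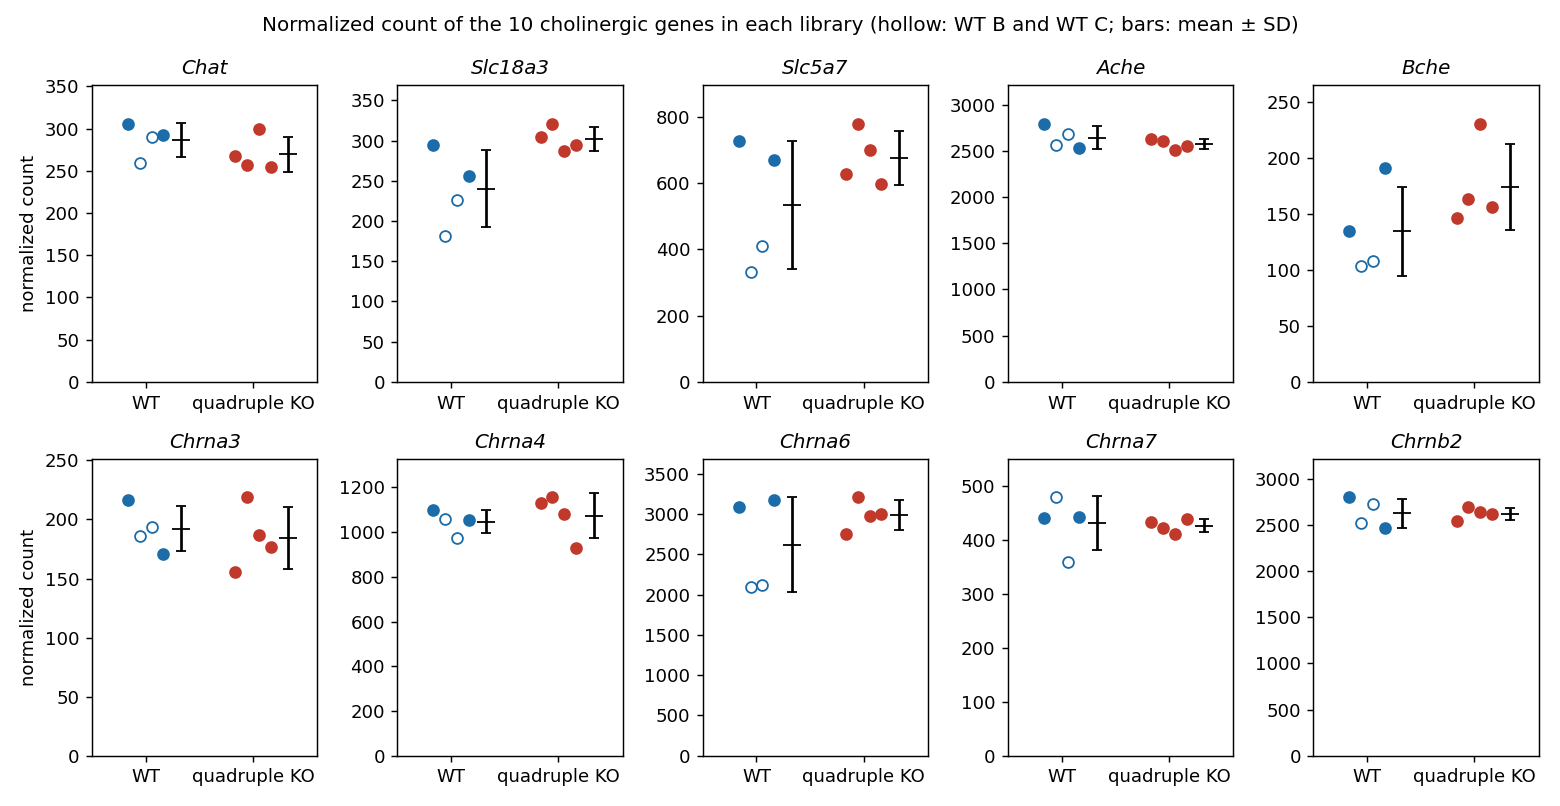
Normalized count (y axes, linear and starting at 0) of each of the 10 cholinergic genes in the 4 WT and 4 quadruple KO libraries, 1 point per library in the order A to D, with the mean ± SD beside each group. WT B and WT C, drawn hollow, lie below the other 2 WT libraries for Chat, Slc18a3, Slc5a7, Bche and Chrna6, and the genotypes overlap in every panel.

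Among the transmitter genes, the genotypes were interleaved for Chat, while Slc18a3 and Slc5a7 had higher means in the KO that did not pass the test. Chat measured 306, 259, 290.0 and 293 in WT A to WT D and 267, 257, 299 and 255 in KO A to KO D. The means were 287 ± 19.9 in WT and 269.5 ± 20.7 in the KO (SD, n = 4). The difference was -0.09 (0.0991 SE) on the log2 scale with a 95% interval of -0.31 to 0.13, or -19.5% to 9.68% as a change of the level (adjusted p = 0.591, limma). Without WT B and WT C it was -0.15, with an interval of -0.38 to 0.07. A fall of Chat mRNA by more than 19.5% lies outside the interval from all 8 libraries, but other fits allowed a larger fall. On the log2 scale the lower limit was -0.38 without WT B and WT C and -0.39 without KO C, beside -0.31.

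Slc18a3 measured 295, 182, 226 and 256 in WT A to WT D and 305, 321, 286 and 294 in KO A to KO D. The 4 KO libraries lay close together, WT B and WT C were the lowest, and the genotypes overlapped through WT A, which exceeded the lowest 2 KO libraries. The means were 239.8 ± 47.9 and 302 ± 14.9 (SD, n = 4), and the difference was 0.35 (0.146 SE, 95% interval 0.02 to 0.68). Its unadjusted p of 0.0387 became an adjusted p of 0.301 (limma), and the two-sided exact permutation test gave p = 0.0857, where 0.0286 is the smallest p that 4 against 4 libraries allow. Without WT B and WT C the difference was 0.13 (-0.09 to 0.35).

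Slc5a7, whose product supplies the choline for synthesis, was the most variable of the 10 genes in WT, with a coefficient of variation of 36.1% over the 4 libraries. It lies at chr17:54580020-54606076 on the minus strand and measured 727, 333, 409 and 668 in WT A to WT D and 628, 779, 698 and 596 in KO A to KO D. WT B and WT C held 53.2% of the mean of WT A and WT D, and WT A and WT D lay within the KO range. The difference was 0.40 (0.239 SE, interval -0.13 to 0.94, adjusted p = 0.349, limma) with all libraries. It turned to -0.05 (-0.30 to 0.19) without WT B and WT C, so its direction rests on these libraries.

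Chat and Slc18a3 form 1 locus, in which the transporter gene lies inside the gene of the enzyme. Chat spans chr14:32129369-32187946 on the minus strand of GRCm39 and has 16 exons in its canonical transcript. Slc18a3, at chr14:32184395-32186807 on the same strand, is a single exon that lies wholly within the first intron of Chat, which runs from 32182871 to 32187763 and is 4893 bases long. It begins 1139 bases after the outermost start of Chat, and no exon of an annotated Chat transcript covers any of its bases. Since the libraries were made from total RNA, reads of unspliced Chat RNA within this intron and reads of Slc18a3 cannot be told apart by position or strand. The lncRNA Litchi runs across the locus on the opposite strand and had between 4.23 and 30.7 normalized counts.

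**Figure D2:**
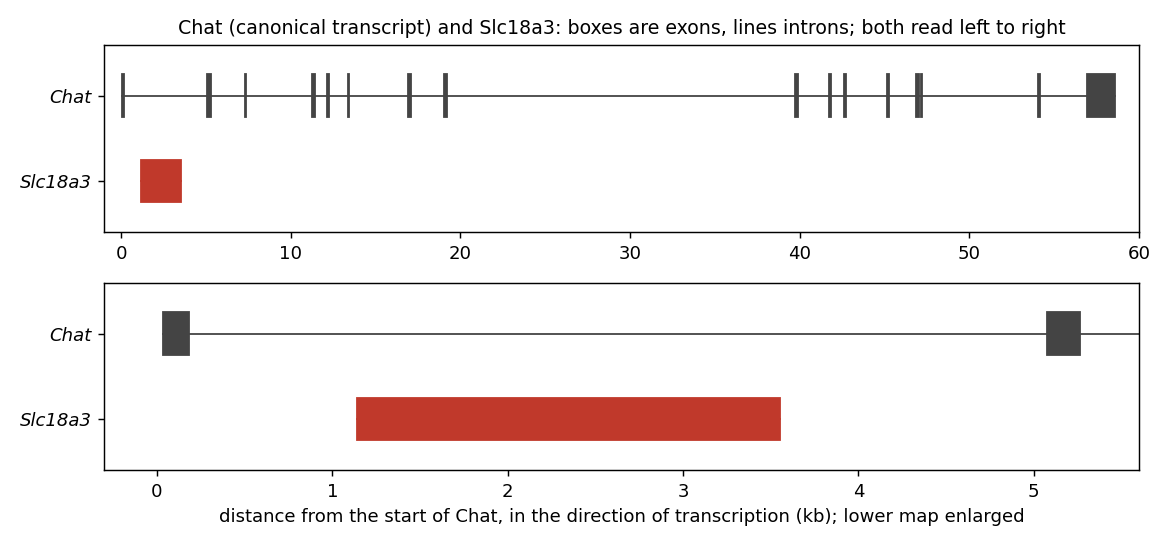
Map of Chat (canonical transcript) and Slc18a3 drawn to scale, with distance from the outermost start of Chat in the direction of transcription (kb) on the x axis, boxes for exons and lines for introns. The upper map shows the whole of Chat and the lower one its first intron, in which the single exon of Slc18a3 begins 1139 bases from the start of Chat and shares 0 bases with its exons.

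The proportion of the 2 products of this locus was compared after the values had been seen, as 1 of 5 ratios. Slc18a3 per Chat was 0.830 ± 0.114 in WT and 1.13 ± 0.123 in the KO (SD, n = 4), with ranges of 0.702 to 0.965 and 0.957 to 1.25 that overlapped through WT A. The ratio was 0.965 and 0.875 in WT A and WT D and lower, at 0.702 and 0.779, in WT B and WT C. The two-sided exact permutation test gave p = 0.0571, or 0.143 after Benjamini-Hochberg adjustment over the 5 ratios. Slc5a7 per Chat was 1.84 ± 0.570 in WT and 2.51 ± 0.347 in the KO (exact permutation p = 0.114, adjusted p = 0.190). Neither ratio was distinguishable between the genotypes at this number of libraries.

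The genes whose profile over the 8 libraries was nearest to that of Chat were outside the cholinergic system. Likeness was the mean absolute difference of the log2 values after each gene had been centred on its own mean, and is a description over 17635 genes and 8 libraries. The nearest were Micos10, a component of the mitochondrial inner membrane organizing complex (0.0282), the small ubiquitin-like modifier gene Sumo3 (0.0409), the prohibitin gene Phb (0.0441), Nudcd1 (0.0444) and Tcp11 (0.0488). Of the cholinergic genes, Chrnb2 stood 291st and Ache 468th in this order. The other genes of the transmitter group were far lower, with Slc18a3 at place 9918 and Slc5a7 at 13481. The measure also places genes that vary little near Chat, whose own centred values ran only from -0.124 to 0.140. A near place therefore need not mean that a gene follows Chat. In WT B and WT C the centred values were -0.55 and -0.24 for Slc18a3 and -0.81 and -0.51 for Slc5a7. Those of Chat were -0.10 and 0.06.

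Of the esterases, Ache had nearly the same mean in both genotypes and Bche was low and variable. Ache (chr5:137285781-137292728, plus strand) measured 2793, 2558, 2685 and 2531 in WT A to WT D and 2631, 2609, 2509 and 2554 in KO A to KO D. The means were 2642 ± 121 and 2576 ± 54.7 (SD, n = 4), and the KO libraries lay inside or just below the WT range. The difference was -0.04 (0.0624 SE), with an interval of -0.18 to 0.10 or -11.5% to 7.54% (adjusted p = 0.745, limma), and -0.05 without WT B and WT C. Bche (chr3:73543141-73615748, minus strand) measured 135, 103, 108 and 190.4 in WT A to WT D and 146, 163, 230.3 and 156 in KO A to KO D, with WT B and WT C the lowest and KO C the highest. Its difference of 0.39 (0.220 SE, -0.10 to 0.89, adjusted p = 0.333, limma) became 0.09 without WT B and WT C. Bche per Ache was 0.0510 ± 0.0166 in WT and 0.0678 ± 0.0163 in the KO (exact permutation p = 0.171).

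None of the 4 α subunit genes among the 10 passed the test. Chrna6 (chr8:27893240-27903974, minus strand), which joins β2 and β3 subunits in receptors of ganglion cell axons, measured 3090.4, 2097, 2124 and 3179 in WT A to WT D and 2756, 3209, 2984 and 3009 in KO A to KO D. WT B and WT C were the lowest of the 8 libraries, at 67.3% of the mean of WT A and WT D, and the KO range of 2756 to 3209 held WT A and WT D. The difference was 0.21 (0.148 SE, -0.12 to 0.55, adjusted p = 0.401, limma) with all libraries and -0.07 (-0.21 to 0.07) without those 2. Its direction turned with WT B and WT C, as that of Slc5a7 did.

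Chrna4 (chr2:180660173-180685339, minus strand), the α partner of β2 in the commonest nicotinic receptor of the brain, measured 1098, 1057, 974 and 1055 in WT A to WT D and 1131, 1155, 1082 and 929 in KO A to KO D. KO D was the lowest and KO B the highest of the 8, and the difference was 0.04 (0.0885 SE), with an interval of -10.8% to 17.6% and an adjusted p of 0.83 (limma). It was -0.01 without WT B and WT C. Chrna7 (chr7:62731494-62862322, minus strand), which forms receptors of a single subunit type that are permeable to calcium, measured 441, 478, 359.5 and 443 in WT A to WT D and 432, 422, 411 and 438 in KO A to KO D. The extremes of its 8 values were both WT libraries, WT C and WT B, and the difference was -0.01 (-15.2% to 16.6%, adjusted p = 0.968, limma), or -0.05 without those 2.

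Chrna3, an α subunit of the receptors that carry retinal waves before eye opening, measured 217, 186, 194 and 171 in WT A to WT D and 156, 219, 187 and 177 in KO A to KO D. Its KO values ranged from 156 to 219 and enclosed the WT values of 171 to 217. The difference was -0.06 (0.132 SE, -22.1% to 17.7%, adjusted p = 0.792, limma), and -0.07 without WT B and WT C.

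Chrnb2, the β subunit shared by most of these receptors and needed for the early waves, gave the smallest difference of the 10. It measured 2798, 2523, 2723 and 2469.8 in WT A to WT D and 2538, 2695, 2641 and 2615 in KO A to KO D. The means were 2628 ± 157 and 2622 ± 65.2 (SD, n = 4), and all 4 KO libraries lay within the WT range. The difference was -0.00 (0.0667 SE) with an interval of -10.0% to 10.8% (adjusted p = 0.987, limma), and the interval without WT B and WT C was -0.14 to 0.13 on the log2 scale. Chrna6 per Chrnb2 was 1.001 ± 0.238 in WT and 1.14 ± 0.0438 in the KO (exact permutation p = 0.343). The end of Chrnb2 (chr3:89653502-89671953, minus strand) overlaps Adar on the opposite strand. Whether the counting used strand is not given in the sources used here, and reads from such overlaps cannot be told apart without it.

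**Figure D3:**
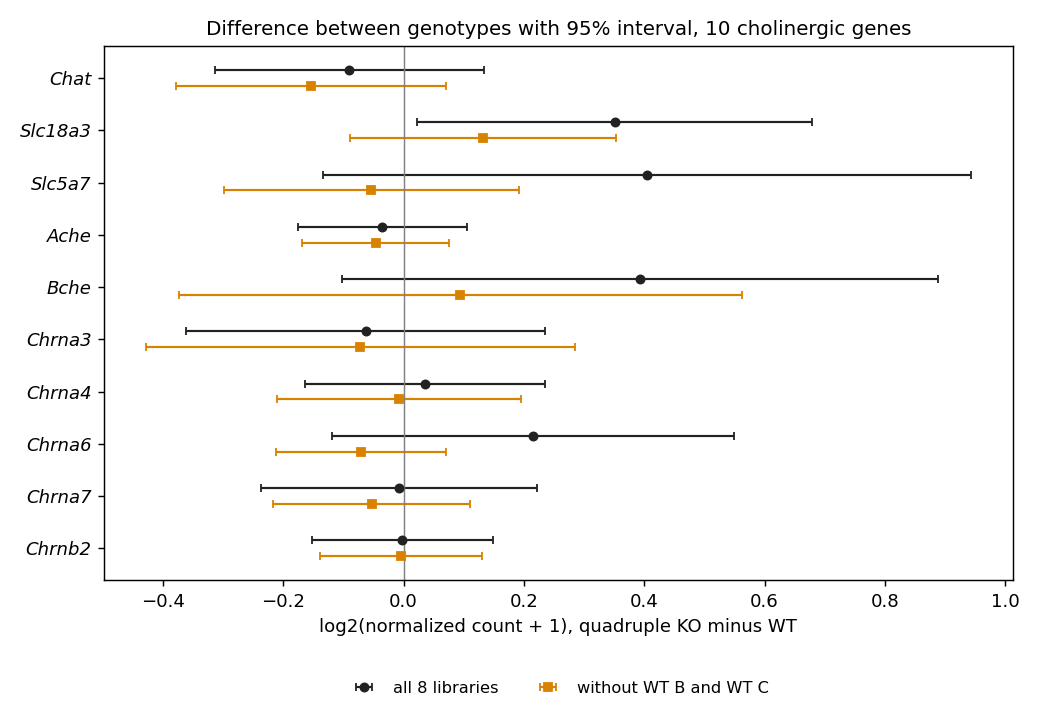
Difference between the genotypes in log2(normalized count + 1), KO minus WT (x axis), for the 10 cholinergic genes (y axis), with 95% intervals from limma for all 8 libraries (black circles) and without WT B and WT C (orange squares). With all libraries the interval of Slc18a3 lies above 0 and the other 9 include it, and without WT B and WT C all 10 include 0.

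WT B and WT C lay below both other WT libraries in 5 of the 10 genes, Chat, Slc18a3, Slc5a7, Bche and Chrna6, and above both in 0. Of the 17636 genes tested, 35.8% had both below and 6188 had both above. The 4 genes with the largest differences between the genotypes, Slc5a7, Bche, Slc18a3 and Chrna6, were all among these 5. WT B and WT C enter the WT mean, so low values in them raise the difference, and this coincidence is no separate result. Among the 5, the shift of WT B and WT C was largest for Slc5a7 and smallest for Chat, whose WT B and WT C mean was 91.7% of that of WT A and WT D. In the other 5 genes, the mean of WT B and WT C was between 94.3% and 99.6% of that of WT A and WT D, and in Chrna7 these 2 libraries lay on opposite sides of the others.

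Compared as levels per kilobase of all annotated exons joined, the order of the 10 genes was the same in both genotypes. In WT, Chrna6 was the highest at 902 ± 204 normalized counts per kb (SD, n = 4), followed by Ache at 506, Chrnb2 at 311 and Chrna4 at 200.1. Slc18a3 at 99.4, Slc5a7 at 80.6, Chat at 46.2, Chrna7 at 42.2, Chrna3 at 35.8 and Bche at 19.9 completed the order. The WT ranges of Slc18a3 and Slc5a7, of Chat and Chrna7, and of Chrna7 and Chrna3 overlapped, so these neighbours were not set apart. In the KO the overlapping neighbours were Chat and Chrna7, Chrna7 and Chrna3, and Chrna3 and Bche. The order depends on the length used. With the length of the canonical transcript, which was tried once the values were known, Ache stood first at 1092 per kb before Chrna6 at 902, and Chrna3 at 79.5 stood before Chat at 78.6. Among the transmitter genes, the level of Chat was the lowest of the 3 by either length.

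**Figure D4:**
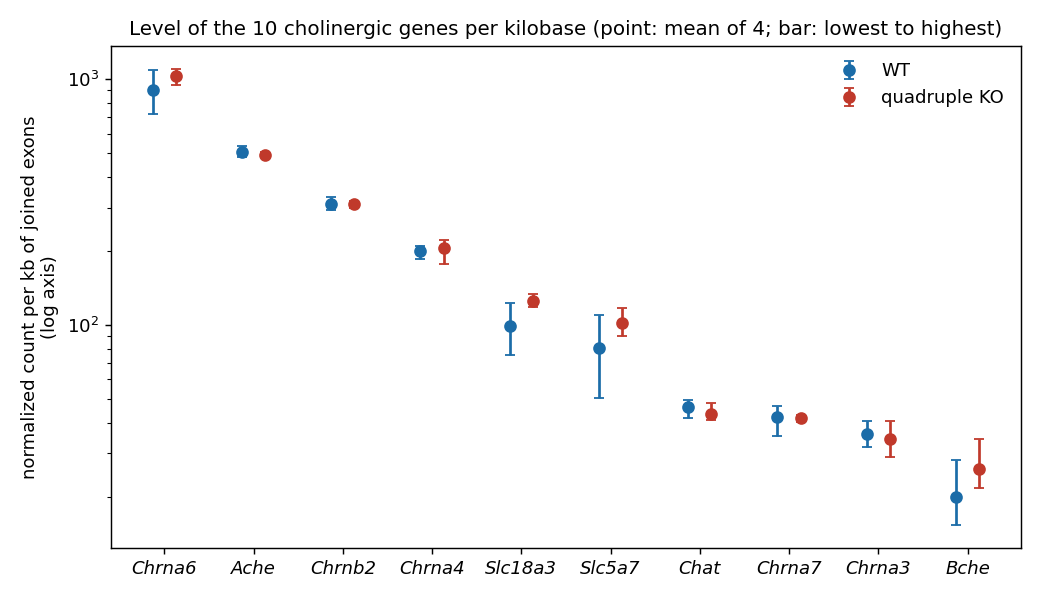
Level of the 10 cholinergic genes in normalized counts per kb of joined exons (y axis, log scale), with the mean of 4 libraries as a point and the lowest to highest library as a bar, for WT (blue) and quadruple KO (red). Genes are ordered by their WT mean, from Chrna6 at 902 to Bche at 19.9, and the KO means follow the same order.

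The remaining genes of the cholinergic system were taken from 4 lists of 36 genes in all, of which 25 were tested and 10 were not analysed here. Slc44a3 was under the filter on low values. Of the 25 tested, 0 were called (limma, beside 0.437% of the genes tested), and 3 had an unadjusted p under 0.05, against 16.6%. Their median difference was 0.08, with 16 positive and 9 negative. In 3 genes, Chrna5, Slc44a1 and Chkb, the genotypes did not overlap, against 9.74% of the genes tested.

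Among the 5 nicotinic genes outside the 10, Chrna5 had the largest difference. Its α5 subunit is an accessory member that joins α3 or α4 receptors and alters their calcium permeability. Chrna5 measured 213, 143, 139 and 185 in WT A to WT D and 287, 274, 229 and 234 in KO A to KO D. Every KO library was above every WT library, and the difference was 0.60 (0.160 SE, 95% interval 0.24 to 0.96) on the log2 scale. The unadjusted p was 0.00421 and the adjusted p 0.301 (limma), so it was not called, and the exact permutation p was 0.0286, the smallest that the design allows. Without WT B and WT C the difference was 0.36 (0.07 to 0.65, adjusted p = 0.353, limma).

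Chrna5 (chr9:54888164-54918184, plus strand) and Chrna3 (chr9:54917395-54933941, minus strand) face each other and overlap at their ends. Chrna3 per Chrna5, 1 of the 5 ratios chosen after the values had been seen, was 1.16 ± 0.223 in WT and 0.728 ± 0.126 in the KO (SD, n = 4). Its ranges of 0.925 to 1.39 and 0.542 to 0.817 did not overlap, with an exact permutation p of 0.0286 and 0.143 after adjustment over the 5 ratios. The ratio holds the same Chrna5 values, which did not overlap by themselves, while Chrna3 differed by -0.06, so it is no separate result. Since 0.0286 is the smallest p possible, the adjusted p could not fall under 0.05 unless other ratios also reached it. WT B and WT C had the highest ratios, 1.30 and 1.39, and those of WT A and WT D, 1.02 and 0.925, were also above every KO library. Chrnb4, the third gene of this cluster on chromosome 9 and the β subunit of autonomic ganglia, measured 62.0, 32.2, 43.6 and 67.3 in WT A to WT D and 58.0, 71.0, 87.6 and 76.7 in KO A to KO D. WT B and WT C were again the lowest, and the difference of 0.55 (-0.01 to 1.11, adjusted p = 0.302, limma) became 0.16 without them.

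Chrnb3, the neighbour of Chrna6 on chromosome 8, was singled out after its values were seen because WT B and WT C were its highest libraries. It measured 2941, 3480.2, 3496 and 2339 in WT A to WT D and 2404, 2603, 2439.6 and 2399 in KO A to KO D. The difference was -0.30 (-0.58 to -0.02, adjusted p = 0.301, limma), and -0.09 (-0.29 to 0.10) without WT B and WT C. In these libraries the α6 gene was thus at its lowest and the β3 gene at its highest. Chrna2 and Chrnb1, the other nicotinic genes tested, had differences of 0.28 and 0.53 with adjusted p of 0.312 and 0.402 (limma). That of Chrna2 was 0.12 without WT B and WT C, and that of Chrnb1 turned to -0.15.

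Of the 5 muscarinic receptor genes, which couple to G proteins, none was called. Chrm2, which inhibits adenylyl cyclase, measured 679.6, 472, 324 and 669.9 in WT A to WT D and 671, 805, 785 and 690.1 in KO A to KO D. WT B and WT C were the lowest, and the difference was 0.52 (0.02 to 1.01, unadjusted p = 0.0424, adjusted p = 0.301, limma), or 0.12 without them. Chrm3, which signals through phospholipase C, measured 393, 571, 439.9 and 463 in WT A to WT D and 362, 491, 366 and 376 in KO A to KO D, with a difference of -0.22 (adjusted p = 0.371, limma), or -0.11 without WT B and WT C.

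The 9 genes tested for assembly, modulation and anchoring held 0 calls. Lypd6 and Lypd6b encode small membrane-anchored proteins that bind nicotinic receptors. Lypd6 measured 554, 834, 1036 and 539 in WT A to WT D and 525, 545, 535 and 663 in KO A to KO D, with WT B and WT C far above the other 6, and its difference of -0.34 turned to 0.05 without them. Lypd6b measured 83.4, 127, 124 and 84.5 in WT A to WT D and 85.6, 70.4, 96.5 and 62.5 in KO A to KO D and differed by -0.40 (adjusted p = 0.316, limma), or by -0.11 without WT B and WT C, its highest libraries. Ric3 and Tmem35a, the chaperones needed for α7 receptors, differed by -0.08 and 0.19 (adjusted p = 0.631 and 0.308, limma), which are given as values outside the naming rule. The difference of Ric3 turned to 0.08 without WT B and WT C, and that of Tmem35a was 0.07.

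Of the 6 genes tested for choline supply and related transport, none was called. The choline transporter gene Slc44a1 measured 4177, 3592, 3735 and 4168 in WT A to WT D and 4336, 4199, 4875 and 4281 in KO A to KO D, and the choline kinase gene Chkb measured 871, 861, 891 and 860.4 in WT A to WT D and 896, 1111, 926 and 946 in KO A to KO D. In both, every KO library was above every WT library, by a small margin. The differences were 0.18 (-0.00 to 0.36) and 0.15 (-0.04 to 0.34), with adjusted p of 0.302 and 0.335 (limma) and an exact permutation p of 0.0286 in each. Without WT B and WT C they were 0.08 and 0.16.

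**Figure D5:**
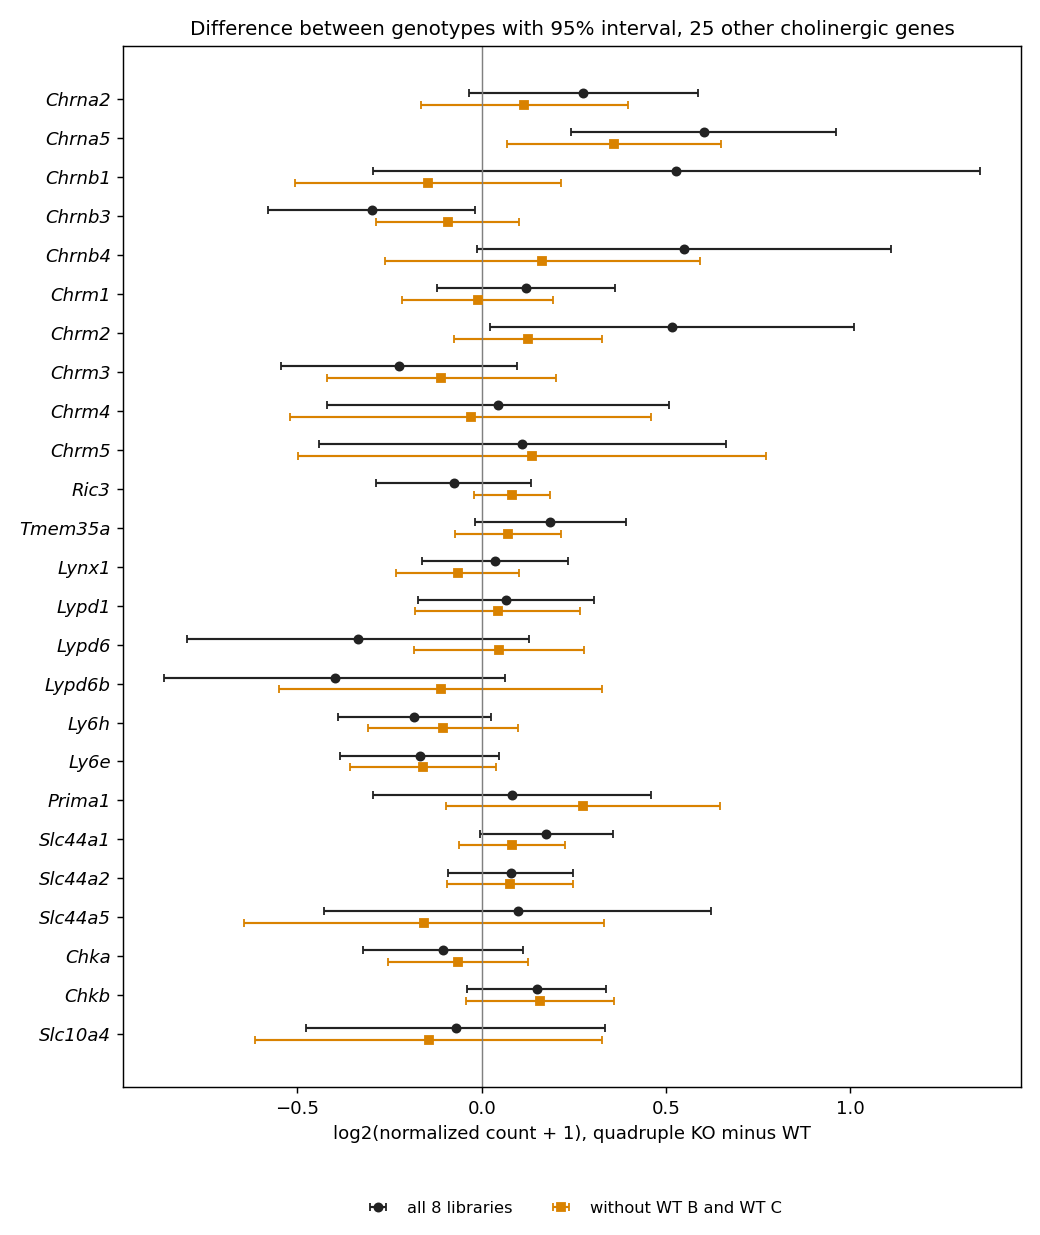
Difference between the genotypes in log2(normalized count + 1), KO minus WT (x axis), for the 25 other cholinergic genes tested (y axis: nicotinic, muscarinic, assembly and anchoring, choline supply), with 95% intervals from limma for all 8 libraries (black circles) and without WT B and WT C (orange squares). The interval of Chrna5 lies above 0 in both fits, and those of Chrnb3 and Chrm2 include 0 once WT B and WT C are left out.

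The markers of the cells that make acetylcholine were present in every library. Of 9 starburst amacrine markers, which include the 3 transmitter genes, 0 were called (limma) and 1, Slc18a3, had an unadjusted p under 0.05, against 0.437% and 16.6% of the genes tested. Sox2, a transcription factor of starburst cells that glia also express, measured 869.9, 669, 532 and 901 in WT A to WT D and 831, 859, 871 and 838 in KO A to KO D, and Isl1, a starburst factor that bipolar and ganglion cells also express, measured 1546, 2418, 2342 and 1617 in WT A to WT D and 1699, 1515, 1595 and 1568 in KO A to KO D. The values of WT B and WT C were the lowest for Sox2 and the highest for Isl1. Their differences were 0.23 and -0.28 with all libraries and -0.06 and 0.01 without WT B and WT C. Megf10 and Megf11, cell surface proteins that space starburst cells, differed by -0.01 and -0.24 with all libraries and by 0.03 and 0.04 without WT B and WT C, so both turned. Fezf1, a factor of the starburst cells displaced to the ganglion cell layer, had only 13.7 to 37.4 normalized counts, and differed by 0.14 with an interval of -0.62 to 0.90, or by -0.07 without WT B and WT C. Bhlhe22 differed by 0.15 (adjusted p = 0.312, limma), or by 0.13 without them. The part of other retinal cells in the values of these 9 markers was not tested.

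The markers of the ganglion cells, which carry many of the nicotinic receptors, had negative differences in 9 of 11 genes, and 0 of 11 were called (limma). There were 5 with an unadjusted p under 0.05 and 3, Rbpms, Nefl and Sncg, without overlap between the genotypes, against 16.6% and 9.74% of the genes tested. Without WT B and WT C the differences were negative in 11 of 11, and 4 genes, Rbpms, Nefl, Pou4f2 and Pou4f3, had an unadjusted p under 0.05, against 11.6% of the genes tested. The median difference was -0.20 in both fits, although single markers moved between them, and that of the 5 nicotinic genes among the 10 was -0.00 with all libraries and -0.05 without those 2. Rbpms, an RNA-binding protein used as a pan-ganglion cell marker, measured 869.6, 959.7, 987 and 781 in WT A to WT D and 565, 698, 730.4 and 674 in KO A to KO D, a difference of -0.43 (-0.68 to -0.18, adjusted p = 0.297, limma), or -0.31 without WT B and WT C. The summed level of the 11 markers was 34821 to 39397 in WT and 28798 to 33977 in the KO, and the groups did not overlap. Nefl, itself without overlap, made the largest part of this sum. Its means were 16520.8 in WT and 14093.5 in the KO, where the sums averaged 36850.3 and 32193.8. The sum therefore does not weigh the 11 markers alike. The part of this sum in the values of the nicotinic genes was not tested. Of the other markers, Pou4f1, Pou4f2 and Pou4f3, transcription factors of ganglion cells, differed by 0.29, -0.16 and -0.20 with all libraries and by -0.11, -0.30 and -0.51 without WT B and WT C. For the neurofilament genes Nefl, Nefm and Nefh the differences were -0.23, -0.01 and -0.43, and -0.21, -0.20 and -0.15 without those 2. Slc17a6, the glutamate transporter of ganglion cells, went from -0.34 to -0.15, Thy1 from 0.05 to -0.05, Sncg from -0.27 to -0.25 and Tubb3 from -0.18 to -0.08.

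Markers of other cells were checked in the same way. The 6 markers of direction-selective ganglion cells and the 9 of GABAergic and glycinergic amacrine cells had medians of -0.07 and 0.19, which became 0.11 and 0.02 without WT B and WT C. At an unadjusted p under 0.05 (limma) there were 0 of the 6 and 2 of the 9, against 16.6% of the genes tested. Without WT B and WT C there were 2 of the 6 and 0 of the 9, against 11.6%. These 2, named after the values were seen, were Mmp17 and Drd4, at 0.26 and 0.27 with adjusted p of 0.390 and 0.113 (limma). In that fit Cartpt, Col25a1, Fstl4 and Trhr differed by 0.15, -0.005, 0.07 and 0.02. Whether Mmp17 and Drd4 stand for these ganglion cells alone in bulk retina was not tested. Skeletal muscle, in which nicotinic receptors and Ache are also abundant, had 79.6 to 134 normalized counts summed over the 5 muscle markers listed. The 8 rod markers summed to 1280542 to 1701949 normalized counts in WT and 1713425 to 1850749 in the KO, and these ranges did not overlap. The sums for 7 pigment epithelium, 5 fibroblast, 4 oligodendrocyte and 5 erythrocyte markers listed reached at most 17269, 937, 2129 and 1616. The sum of the 5 lens markers listed ran from 83.0 to 2828 in WT and from 34.9 to 1889.6 in the KO, and WT B at 2828 and KO C at 1889.6 stood above the other 6 libraries, of which WT C was the highest at 802. The part of lens RNA in the cholinergic values was not tested. None of the genes tested in these 9 lists was called.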

How the data were processed

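Total RNA of whole retinae from 4 WT and 4 quadruple KO samples was sequenced. The authors trimmed reads with Trim Galore 0.6.7, aligned them to GRCm39 with STAR 2.7.9a, estimated gene counts with Salmon 1.5.2 and normalized them with DESeq2 1.32.0 in R 4.1.1. The deposited values are these normalized estimated counts, a signal that is never negative and not whole. The annotation release and the strand setting are not given in the sources used here. Whole reads could not be recovered, so no count model was run and the depth is unknown. The deposited table also holds the authors' mean, fold change, standard error and p-value columns, which were not used.

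Columns were assigned to samples by name. Values were put on the scale log2(normalized count + 1), on which the fold change of low genes is understated. Genes with a mean of at least 10 were tested with limma 3.58.1 in R 4.3.3 (lmFit, eBayes with a trend), without covariates, and p-values were adjusted over 17636 genes by the Benjamini-Hochberg method. Genes were called at an adjusted p under 0.05. Exact permutation tests on normalized counts and ratios were two-sided. Gene positions, lengths and sequences came from GRCm39 with GENCODE M39, in Python 3.11.15 with pandas 2.3.3 and scipy 1.17.1. Exon lengths join all annotated transcripts of a gene. The limma fit was also run on simulated counts with known changes. Their spread was taken from the KO libraries alone, so the simulation does not cover libraries that stand apart as WT B and WT C did.

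The genes named are the 10 cholinergic genes, every called gene and the 2 largest differences in each of 4 further lists, starburst and ganglion cell markers, genes overlapping the 10, the targeted genes, and the 5 genes nearest to Chat in profile. The 10 genes, the lists and the tests were chosen with earlier results of these data known. The alternatives were other normalizations, filters, pseudocounts and eBayes settings, array weights, a replicate block by letter, and libraries left out.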

Additional observations from a re-analysis of the deposited data

Results flagged for a closer look

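In 80 groups of 4 libraries, the highest and the lowest library were compared with the nearest of the others. In 3 groups a library had a gap to its neighbour above the critical share of the group's range in Dixon's test, and chance gives about 1 in 20 such groups. The 3 of 80 groups are not above that rate, so these libraries are only described. Chrm3 measured 490.8 normalized counts in KO B, against 362.1 to 376.3 in the other KO libraries, a gap of 0.889 of the range. Lypd6 measured 663.5 in KO D, against 525.1 to 544.7 in the other KO libraries, a gap of 0.858 of the range. Nefm measured 2434 in KO A, against 3013 to 3107 in the other KO libraries, a gap of 0.861 of the range. None of the 10 cholinergic genes had such a library.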

How the results depend on the processing

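None of the 10 cholinergic genes and none of the other cholinergic genes tested was called under any of the 18 alternatives (limma throughout), while the count of called genes over the whole table, 77, ranged from 56 to 89 with single libraries left out. It was 143 with array weights, which gave WT B and WT C weights of 0.164 and 0.156. With the letter as a replicate block it was 51. The labels do not say whether the letters pair the samples. The residuals of same-letter libraries correlated at -0.00967, -0.109, 0.0980 and 0.0502 for A to D, and those of different letters at -0.132 to 0.115. Such weak correlations cannot exclude a step shared by a letter. The block called no cholinergic gene. For the differences of the 10 genes, 164 of the 180 alternative values kept their direction, counted by sign alone. With array weights Slc5a7 kept its sign at 9.984e-05 (-0.30 to 0.30), beside 0.40 without weights. Slc18a3 was 0.12 (-0.09 to 0.34) with array weights, beside 0.35 without. The cause of the turned directions was not tested. On the log2 scale, leaving out WT B and WT C turned Slc5a7 to -0.054, Chrna4 to -0.0074, Chrna6 to -0.070, Lypd6 to 0.047, Chrnb1 to -0.15, Ric3 to 0.083, Sox2 to -0.060, Isl1 to 0.011, Megf10 to 0.031, Megf11 to 0.037, Fezf1 to -0.066, Pou4f1 to -0.11 and Thy1 to -0.052. Array weights turned Chrna4 to -0.0068, Chrna6 to -0.013, Sox2 to -0.0033, Megf10 to 0.0048, Pou4f1 to -0.014, Thy1 to -0.052 and Ric3 to 0.052. Quantile normalization turned Chrna7 to 0.011, Chrnb2 to 0.024, Megf10 to 0.0028 and Nefm to 0.0044. With single libraries left out, the difference ranged from -0.15 to 0.014 for Chrna3, from -0.0015 to 0.10 for Chrna4, from -0.091 to 0.045 for Chrna7, from -0.031 to 0.029 for Chrnb2, from -0.043 to 0.020 for Megf10, from -0.072 to 0.39 for Fezf1, from -0.039 to 0.11 for Thy1 and from -0.11 to 0.068 for Nefm. By the length of the canonical transcript, chosen after the data were seen, 5 of the 10 genes changed place in the WT order per kb, to place 1 for Ache, 2 for Chrna6, 7 for Chrna3, 8 for Chat and 9 for Chrna7. The number of libraries and the unknown depth limit the precision, and for Slc5a7 a difference as large as 0.94 stayed within the interval.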
